A study of Mus musculus with 24 samples.

Results

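IL-4, the T helper type 2 cytokine that drives alternative macrophage activation, was compared with no IL-4 in bone marrow-derived macrophages of Pparg+/- LysCre mice. The 6 arrays used were taken from the 24 of the series by their titles: 3 of IL-4-treated macrophages and 3 of control macrophages, none of them with the PPARγ agonist rosiglitazone (RSG). Marrow of 3 mice was cultured to day 10 with M-CSF, a growth factor for macrophages, at 20 ng/ml, and each mouse gave 1 culture without IL-4 and 1 culture with 20 ng/ml IL-4, both with vehicle. All of these cells carried 1 intact and 1 null allele of Pparg and a Cre recombinase expressed from the lysozyme locus, which is active in myeloid cells, so the controls carried them too. LysCre acts in other myeloid cells than macrophages as well, neutrophils among them. The other arrays used were those of the same mice with 1 µM RSG and those of 3 Pparg fl/- LysCre mice, whose floxed Pparg allele is open to deletion in myeloid cells. Total RNA was measured on Affymetrix mouse arrays, and every value below is the deposited expression ratio, in which 1 is the median of the probe set over the arrays for most probe sets. A ratio of 1 gene can be followed across arrays, but it does not say how bright that gene is beside another. Changes are log2 changes of the ratio, IL-4 minus control, with the standard error (SE) of the limma fit, and a gene was called at an adjusted p under 0.05 with a change of at least 1.5-fold. With 3 arrays a group, their number limits the precision. Triplets of ratios are in the order of mice 1, 2 and 3.

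IL-4 binds a receptor that contains IL-4Rα and signals through JAK kinases to STAT6, which enters the nucleus and binds palindromic sites at its target genes. In macrophages this program is known for arginine metabolism, chitinase-like and resistin-like proteins, C-type lectins and the induction of Pparg. The genes described here are mostly outside that set: those of division, protein synthesis, sterol synthesis, nutrient handling, signalling and contact between cells.

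Several facts of the arrays bear on what follows. Pparg, of which every cell here had 1 intact allele, was at 0.579, 0.510 and 0.558 without IL-4 and at 2.02, 1.71 and 1.46 with it (log2 change 1.65 ± 0.26, adjusted p = 0.00013). The median ratio of the 6 arrays lay between 0.906 and 0.994, and the median gene changed by 0.11 on the log2 scale. Lyz2, the lysozyme gene whose locus carries Cre, differed most by mouse: all 4 arrays of mouse 2 were between 18.4 and 21.6, and all those of mice 1 and 3 between 0.296 and 1.11. With vehicle it went from 1.11, 19.2 and 0.977 to 0.578, 21.6 and 0.347, so it was lower with IL-4 in mice 1 and 3 and not in mouse 2. The control array of mouse 1 stood apart in interferon-stimulated genes, 9 of 45 of which were at least 4-fold above both other controls there. On each of the other 5 arrays, set against its own group, this held for 0 of 45. Results that this array decides are given without it.

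Some markers of macrophages and of further cell types changed with IL-4. Since a ratio does not give brightness, it does not show whether a marker was present. Adgre1, which encodes the macrophage antigen F4/80, was at 1.02, 0.80 and 0.889 without IL-4 and at 1.20, 0.984 and 1.13 with it and was not called, and neither were Cd68 and Csf1r. Of 13 macrophage markers 6 fell and 1 rose (median -0.76): those that fell were Cx3cr1, Aif1, Siglec1, Fcgr1, Cd14 and Mertk. Of 13 neutrophil genes 8 fell, and the mean log2 ratio of the list was 0.98 to 1.37 without IL-4 and -2.57 to -2.24 with it. S100a9, a calcium-binding protein of neutrophils and monocytes, went from 5.33, 3.53 and 3.30 to 0.0205, 0.01 and 0.01, and 0.01 is the lowest value that entered the fit. Of 13 stromal cell genes 7 fell, and the mean log2 ratio of that list was 0.16 to 0.97 without and -2.02 to -0.82 with IL-4. Col1a1, a collagen chain of fibroblasts, went from 3.03, 2.45 and 1.46 to 0.484, 0.537 and 0.0531. Of 6 monocyte progenitor markers 3 fell (Ccr2, Kit and Cd34) and 0 rose, with 1 fall without the control of mouse 3 or the IL-4 array of mouse 1. Of 6 megakaryocyte markers 3 rose (Itga2b, Ppbp and Vwf) and 1 fell (Pf4), 50% and 16.7% against 10.5% and 7.92% of all genes. The rises were 2 without the control of mouse 1 and 1 without the IL-4 array of mouse 3. Ppbp kept its call only when the IL-4 array of mouse 2 was the one left out. Pf4 changed by -0.67 on the log2 scale (adjusted p = 0.0034), a call lost without the IL-4 array of mouse 3. Gp9 and Gp1bb were not called, and their groups overlapped. Of 10 mast cell and basophil markers 2 rose (Cpa3 and Gata2) and 1 fell (Kit), 20% and 10% against 10.5% and 7.92% of all genes. Of 8 dendritic cell markers 1 rose (Zbtb46) and 2 fell (Fscn1 and Siglech). Of 7 B cell markers 1 fell (Cd79b, log2 change -4.8). Of 7 T and NK cell markers 1 rose (Gzma, log2 change 3.9) and 1 fell (Cd4). Of 5 eosinophil markers 1 fell (Prg2), and of 5 erythroid markers 1 rose (Tfrc). The calls of Zbtb46, Siglech, Cd4 and Prg2 were lost when certain single arrays were left out. With bulk RNA, fewer cells of a type and less RNA per cell cannot be told apart, and the part of these cells in the changes below was not tested.

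IL-4 changed the expression of nearly 1 gene in 5. Of 17737 genes tested, 1864 (10.5%) were called higher and 1405 (7.92%) lower. Large changes were more often falls: 522 genes fell at least 4-fold and 313 rose at least 4-fold. Over 43349 probe sets, of which 7.91% rose and 5.47% fell, 59.1% of the calls were rises, a split that depends on the scale: it was 47.8% with the median of every array set to 0 and 51.7% with quantile normalization. Without the control array of mouse 1 the shares were 10.3% and 6.55%, and 2213 of the 3269 called genes kept their call whichever of the 6 arrays was left out. In 41.1% of all genes the 3 IL-4 arrays did not overlap the 3 controls, so the lack of overlap alone does not set a gene apart.

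Outside the usual activation markers and the cell type markers, the rise of Selp came after those of Scn3a (log2 change 8.47), a sodium channel, and Tceal7 (7.28). Selp, which encodes the adhesion receptor P-selectin of platelets and endothelium, was at 0.281, 0.633 and 0.0358 without IL-4 and at 12.1, 35.3 and 33.2 with it (log2 change 7.03 ± 0.99, adjusted p = 4.7e-05). The 3 IL-4 arrays were all far above the controls, of which mouse 3 was the lowest. Gfra2, a co-receptor for neurturin on neurons, was at 0.0221, 0.0362 and 0.0218 without IL-4 and at 3.62, 3.15 and 2.99 with it (log2 change 6.97 ± 0.64, adjusted p = 5.1e-07). Tuba8, an α-tubulin, was at 0.0207, 0.0895 and 0.0222 without IL-4 and at 2.64, 3.61 and 3.10 with it (log2 change 6.48 ± 0.59, adjusted p = 5e-07). Map2, a microtubule-binding protein of neurons, was at 0.0661, 0.0791 and 0.0969 without IL-4 and at 4.89, 5.31 and 7.71 with it (log2 change 6.20 ± 0.76, adjusted p = 1e-05). In Selp, Gfra2, Tuba8 and Map2 every IL-4 array was above every control, as the rule for naming them required. The controls of Selp ranged from 0.0358 to 0.633 and those of Tuba8 from 0.0207 to 0.0895, while those of Gfra2 and Map2 lay closer together. The rises were found in the other cultures too, on whose arrays the probe set of each gene had been chosen. In Pparg fl/- cells with vehicle the log2 change was 8.80 for Selp, 5.99 for Gfra2, 7.22 for Tuba8 and 6.96 for Map2.

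Enzymes and secreted proteins were also among them. Ppp1r1a, an inhibitor of protein phosphatase 1, went from 0.0523, 0.186 and 0.118 to 5.28, 5.61 and 6.79 (log2 change 5.80 ± 0.57, adjusted p = 9.7e-07). Car2, a carbonic anhydrase, went from 0.0168, 0.175 and 0.0698 to 1.82, 5.24 and 3.72 (log2 change 5.80 ± 0.79, adjusted p = 3.2e-05). F5, coagulation factor V, went from 0.322, 0.190 and 0.322 to 4.51, 14.7 and 14.2 (log2 change 5.18 ± 0.58, adjusted p = 3.7e-06), with mouse 1 the lowest of the IL-4 arrays. Selp and F5 are also platelet genes. The mean log2 ratio of the megakaryocyte list was -0.77 to 0.01 without and -0.36 to 0.33 with IL-4, and 3 of its 6 markers were called higher and 1 lower. The part of platelets and megakaryocytes in the rises of Selp and F5 was not tested. Tmem26, a membrane protein, had close values within each group. It was at 0.0291, 0.0439 and 0.0387 without IL-4 and at 2.02, 2.27 and 2.46 with it (log2 change 5.93 ± 0.36, adjusted p = 7.6e-09). The naming rule, which left out a fixed list of genes, kept 18 rises. Those not yet given were of Lgi3, Srpx2, Lims2, Rbp4, Ptprn, Wwc1, Aldh1a2, Abtb2, Slc7a2 and Bex1, with log2 changes between 5.04 and 6.39. Genes left out rose as much, among them Cldn11, a junction gene (log2 change 6.77), and Ppp1r3c, of glycogen metabolism (5.9). Of the 18 genes, 1 lost its call when an array was left out. This was Abtb2, whose adjusted p was 0.019 with all arrays and 0.5 without the control of mouse 1, and which also lost its call without the control of mouse 3.

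With cell type markers left out, most of the largest falls were of genes of cell division and replication. Tk1, the thymidine kinase of dividing cells, fell by 7.10 on the log2 scale. Spag5, a spindle protein, was at 5.10, 7.90 and 4.77 without IL-4 and at 0.252, 0.0401 and 0.0252 with it (log2 change -6.51 ± 0.82, adjusted p = 1.3e-05). The others had no function in common. Prss23, a secreted serine protease, fell from 3.18, 2.16 and 1.92 to 0.0158, 0.0348 and 0.0364 (log2 change -6.44 ± 0.83, adjusted p = 1.7e-05). Rapsn, the scaffold of the muscle acetylcholine receptor, fell from 3.14, 2.29 and 2.37 to 0.0514, 0.0407 and 0.0343 (log2 change -5.95 ± 0.51, adjusted p = 2.8e-07). Tagln, an actin-binding protein of smooth muscle, fell from 2.70, 2.24 and 1.82 to 0.0451, 0.0275 and 0.0776 (log2 change -5.60 ± 0.91, adjusted p = 0.0002), on arrays on which the stromal list fell. Olfm4, a granule glycoprotein of neutrophils, fell from 4.61, 3.73 and 3.56 to 0.0957, 0.0941 and 0.0985, on arrays on which the neutrophil list fell. Ms4a4c, a membrane protein of the MS4A family, fell from 19.9, 2.94 and 5.09 to 0.705, 0.0160 and 0.345. The control of mouse 1 was its highest value, and its log2 change was -5.41 with all arrays and -4.62 without that control (adjusted p = 0.0038).

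**Figure D1:**
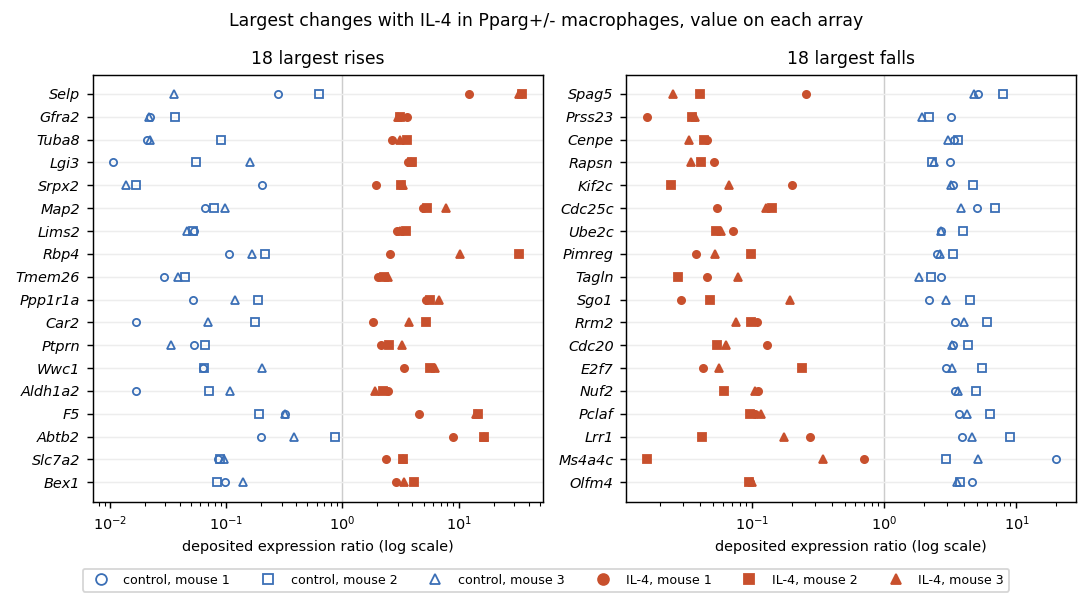
Deposited expression ratio (log scale) of the 18 genes that rose and the 18 that fell the most among those whose groups do not overlap, the usual activation markers, cell type markers and a fixed list of other genes (among them Scn3a, Tceal7 and Tk1) left out, on each of the 6 arrays; open blue symbols are controls, filled red symbols IL-4, and the symbol gives the mouse. The separation of the groups was required for a gene to be shown; Selp is at 12.1, 35.3 and 33.2 with IL-4 against 0.281, 0.633 and 0.0358 without.

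Genes of cell division fell as a block. Of 47 tested genes of the mitotic spindle and kinetochore, 44 were called lower (93.6%, against 7.92% of all genes) and 1 higher, with a median log2 change of -3.39 against 0.11 over all genes. The mean log2 ratio of the list was 1.17 to 1.70 on the controls and -2.15 to -1.98 on the IL-4 arrays. That of the 6 monocyte progenitor markers was 0.29 to 0.79 on the controls and -0.64 to 0.02 on the IL-4 arrays, but its members were split. Kit, the stem cell factor receptor, went from 2.17, 2.02 and 2.35 to 0.361, 0.910 and 0.590 (log2 change -1.91 ± 0.53, adjusted p = 0.016), a call lost without the control of mouse 3 or the IL-4 array of mouse 1. Flt3 went the other way, from 0.787, 0.617 and 0.560 to 1.67, 2.38 and 2.82, and was not called (log2 change 1.79 ± 0.72, adjusted p = 0.103). In Gfi1 and Myb the groups overlapped, and neither was called. The part of progenitors in the fall of the division genes was not tested. Cenpe, the kinetochore motor that carries chromosomes to the spindle equator, went from 3.34, 3.63 and 3.02 to 0.0450, 0.0432 and 0.0331 (log2 change -6.37 ± 0.56, adjusted p = 3.7e-07). Kif2c, which takes microtubules apart at the kinetochore, went from 3.33, 4.68 and 3.20 to 0.199, 0.0240 and 0.0668 (log2 change -5.75 ± 0.79, adjusted p = 3.3e-05). None of the IL-4 arrays came near the controls. Ube2c, an enzyme of the anaphase-promoting complex, went from 2.66, 3.95 and 2.67 to 0.0709, 0.0526 and 0.0579 (log2 change -5.66 ± 0.62, adjusted p = 3.1e-06). Cdc20, the activator of that complex, went from 3.28, 4.32 and 3.27 to 0.129, 0.0541 and 0.0631 (log2 change -5.56 ± 0.57, adjusted p = 1.7e-06). The one gene called higher was Bub3, a checkpoint protein. It was at 0.677, 0.682 and 0.762 without IL-4 and at 1.06, 0.944 and 1.21 with it (log2 change 0.59 ± 0.14, adjusted p = 0.0059), and its call was lost with array medians centred, with quantile normalization and without the control of mouse 1 (log2 change 0.56, short of 1.5-fold), the control of mouse 2 or the IL-4 array of mouse 3.

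DNA replication and repair followed. Of 43 genes of origin licensing and the replication fork, 28 fell and 1 rose (median -1.25). Pole, the catalytic subunit of a replicative polymerase, went from 2.03, 4.47 and 2.88 to 0.0328, 0.267 and 0.0496 (log2 change -5.29 ± 0.85, adjusted p = 0.00018). Prim1, the primase, went from 2.80, 4.53 and 3.02 to 0.278, 0.255 and 0.185 (log2 change -3.84 ± 0.36, adjusted p = 7.3e-07). Mcm5, of the replicative helicase, went from 2.56, 5.16 and 2.94 to 0.352, 0.308 and 0.408 (log2 change -3.26 ± 0.43, adjusted p = 2.3e-05). The control of mouse 2 was the highest in all 3 genes. Orc2, of the origin recognition complex, moved the other way, from 0.662, 0.767 and 0.716 to 0.985, 1.19 and 1.38 (log2 change 0.72 ± 0.17, adjusted p = 0.0045). Of 22 genes of homologous recombination and checkpoint repair 19 fell, but 12 without the control of mouse 2. Rad54b, a recombination helicase, fell the most, from 3.12, 3.58 and 2.02 to 0.124, 0.0635 and 0.0726 (log2 change -5.09 ± 0.76, adjusted p = 8.5e-05). In chromatin assembly and DNA methylation, 9 of 16 fell and 1 rose. Uhrf1, which brings the maintenance methylase to new DNA, fell from 2.62, 4.75 and 3.19 to 0.240, 0.0840 and 0.0771 (log2 change -4.88 ± 0.67, adjusted p = 3.7e-05). Dnmt3a, the de novo DNA methylase, rose from 0.567, 0.648 and 0.572 to 2.08, 1.70 and 1.39 (log2 change 1.51 ± 0.19, adjusted p = 1.2e-05).

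Regulators of entry into the cycle were split, with 9 of 29 lower and 2 higher. E2f2, an activator of S phase genes, fell from 3.09, 3.96 and 2.61 to 0.0388, 0.223 and 0.203 (log2 change -4.72 ± 0.66, adjusted p = 4.5e-05). Ccne2, cyclin E2, fell from 2.24, 6.94 and 4.17 to 0.284, 0.259 and 0.341 (log2 change -3.78 ± 0.53, adjusted p = 4.4e-05). In both, every IL-4 array was below every control. Cdkn1a, the CDK inhibitor p21, rose from 0.810, 0.876 and 0.610 to 1.43, 1.54 and 1.45 (log2 change 0.96 ± 0.14, adjusted p = 4.8e-05). Cdkn2a, which encodes p16 and ARF, was at 0.350, 0.834 and 0.487 without IL-4 and at 0.806, 3.5 and 1.73 with it, so the groups overlapped. Its call (adjusted p = 0.014) was lost without the control of mouse 1 (0.076) and without the IL-4 array of mouse 2.

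Because the members of the spindle and replication lists moved together, the promoter of 1 gene of each is shown: the called member with the largest fall that has an entry in the RefSeq promoter table. They are the 250 bases before the start of the gene, 5′ to 3′ on its strand, from RefSeq on GRCm38.p6. They are of Cenpe (chr3:135212313-135212562, plus strand) and Prim1 (chr10:128014965-128015214, plus strand). Capitals mark the elements searched, on both strands: CCAAT in both, TTTGAA and TTTAAA (forms of the cell cycle homology region) in Cenpe, and TTTCCCGC and TTTGGCGC (forms of an E2F site) in Prim1.
Cenpe: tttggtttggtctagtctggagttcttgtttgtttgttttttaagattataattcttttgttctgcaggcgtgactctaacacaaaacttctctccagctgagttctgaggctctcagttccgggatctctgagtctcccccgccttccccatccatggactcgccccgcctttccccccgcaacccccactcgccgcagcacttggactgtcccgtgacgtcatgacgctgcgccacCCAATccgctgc
Prim1: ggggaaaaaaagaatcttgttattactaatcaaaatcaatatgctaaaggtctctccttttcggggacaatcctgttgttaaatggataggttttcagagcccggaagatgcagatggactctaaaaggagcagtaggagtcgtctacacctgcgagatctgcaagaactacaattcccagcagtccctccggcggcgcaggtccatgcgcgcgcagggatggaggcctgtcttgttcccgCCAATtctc
Each held 1 CCAAT, which began 12 bases before the start in Cenpe and 9 bases before it in Prim1, and none of the other elements was in these windows. Across the lists, 15 of 39 spindle promoters with an entry held TTTGAA (38.5%, against 11.9% of 14097 promoters of tested genes) and 71.8% held CCAAT (35.6% of all). Of 34 replication promoters, 7 held TTTCCCGC or TTTGGCGC (20.6%, against 2.11%). A match is a description of letters and not of a bound site.

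While division genes fell, genes of protein synthesis rose. Of 32 ribosome biogenesis genes, 17 were called higher (53.1%, against 10.5% of all genes) and 0 lower, and all 32 had a change above 0, from 0.13 to 1.13 on the log2 scale, with a median of 0.59. Nop16, a nucleolar protein of the large subunit, went from 0.618, 0.727 and 0.579 to 1.27, 1.44 and 1.5 (log2 change 1.13 ± 0.19, adjusted p = 0.00025). Nop56, of the particle that methylates ribosomal RNA, went from 0.637, 0.760 and 0.637 to 1.11, 1.66 and 1.40 (log2 change 1.02 ± 0.22, adjusted p = 0.0028). Nop58, its partner, went from 0.522, 0.754 and 0.641 to 0.908, 1.51 and 1.52 (log2 change 1.02 ± 0.25, adjusted p = 0.0068). These shifts were small beside those of the division genes, and the groups did not overlap. With the median of every array set to 0, 12 of the 32 were called, and with only the 6 arrays in the fit 9. The enzymes that load amino acids on tRNA moved the same way: 14 of 19 cytosolic tRNA synthetases were called higher and 0 lower (median 0.83). Rars, the arginine enzyme, went from 0.515, 0.504 and 0.486 to 1.37, 1.90 and 1.98 (log2 change 1.78 ± 0.14, adjusted p = 1.6e-07). Eprs, the glutamate and proline enzyme, went from 0.592, 0.632 and 0.588 to 1.5, 1.98 and 1.92 (log2 change 1.57 ± 0.13, adjusted p = 2.3e-07).

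Amino acid transporters and targets of the stress factor ATF4 had a share of rises like that of the tRNA synthetases: 23 of 31 higher (74.2%) and 2 lower, median 1.29, and 19 higher without the control of mouse 1. The mean log2 ratio of the list was -0.92 to -0.71 on the controls and 0.20 to 0.73 on the IL-4 arrays. Slc7a2, a transporter of arginine and other cationic amino acids, went from 0.0858, 0.0886 and 0.0954 to 2.39, 3.33 and 3.34 (log2 change 5.05 ± 0.49, adjusted p = 9.4e-07). Trib3, a pseudokinase induced by ATF4, went from 0.236, 0.296 and 0.446 to 1.72, 3.31 and 3.12 (log2 change 3.05 ± 0.30, adjusted p = 1e-06). Psat1, of serine synthesis, went from 0.257, 0.402 and 0.358 to 1.65, 1.89 and 2.36 (log2 change 2.54 ± 0.25, adjusted p = 1.1e-06). The groups were apart in each of them. The genes that fell were both light chains of amino acid transporters. Slc7a7, of cationic amino acid export, went from 1.37, 1.21 and 1.32 to 0.718, 0.532 and 0.651 (log2 change -1.05 ± 0.16, adjusted p = 0.00015). Slc7a8, of neutral amino acid exchange, went from 1.09, 1.53 and 1.51 to 0.621, 0.701 and 0.660 (log2 change -1.05 ± 0.23, adjusted p = 0.003). Chaperones and the unfolded protein response moved less: 5 of 26 rose (19.2%, against 10.5% of all genes) and 0 fell, with a median of 0.07, below that of all genes. The largest rise there was of Ero1a, an oxidase of disulfide formation, from 0.459, 0.302 and 0.502 to 1.30, 1.59 and 1.97 (log2 change 1.96 ± 0.22, adjusted p = 4.5e-06). Of 27 proteasome subunits 3 rose (11.1%, against 10.5% of all genes) and 0 fell, and 1 rose with array medians centred, without the control of mouse 3 or without the IL-4 array of mouse 2.

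Nucleotide synthesis was divided. Of 22 genes, 5 rose and 4 fell (22.7% and 18.2%, against 10.5% and 7.92% of all genes). The rises were 3 with array medians centred, with quantile normalization, without the control of mouse 3 or without the IL-4 array of mouse 2. Ctps, which makes CTP, went from 0.293, 0.382 and 0.511 to 0.816, 1.21 and 1.53 (log2 change 1.57 ± 0.29, adjusted p = 0.00067). Atic, a purine enzyme, went from 0.616, 0.681 and 0.702 to 1.07, 1.15 and 1.20 (log2 change 0.78 ± 0.12, adjusted p = 0.0001). The genes that fell supply deoxynucleotides or carbon units for them. Rrm2, a subunit of ribonucleotide reductase, fell from 3.44, 6.03 and 4.04 to 0.107, 0.0974 and 0.0745 (log2 change -5.57 ± 0.49, adjusted p = 3.7e-07). Rrm1, its partner, fell from 1.83, 2.09 and 2.38 to 0.514, 0.376 and 0.389 (log2 change -2.31 ± 0.31, adjusted p = 2.5e-05). Dck, deoxycytidine kinase, fell from 1.74, 1.45 and 1.31 to 0.512, 0.496 and 0.626 (log2 change -1.46 ± 0.26, adjusted p = 0.00049). In none of these did the groups overlap. Shmt1, a serine hydroxymethyltransferase, was at 1.5, 1.93 and 1.70 without IL-4 and at 0.0556, 0.119 and 0.0876 with it (log2 change -4.35 ± 0.63, adjusted p = 6.3e-05).

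**Figure D2:**
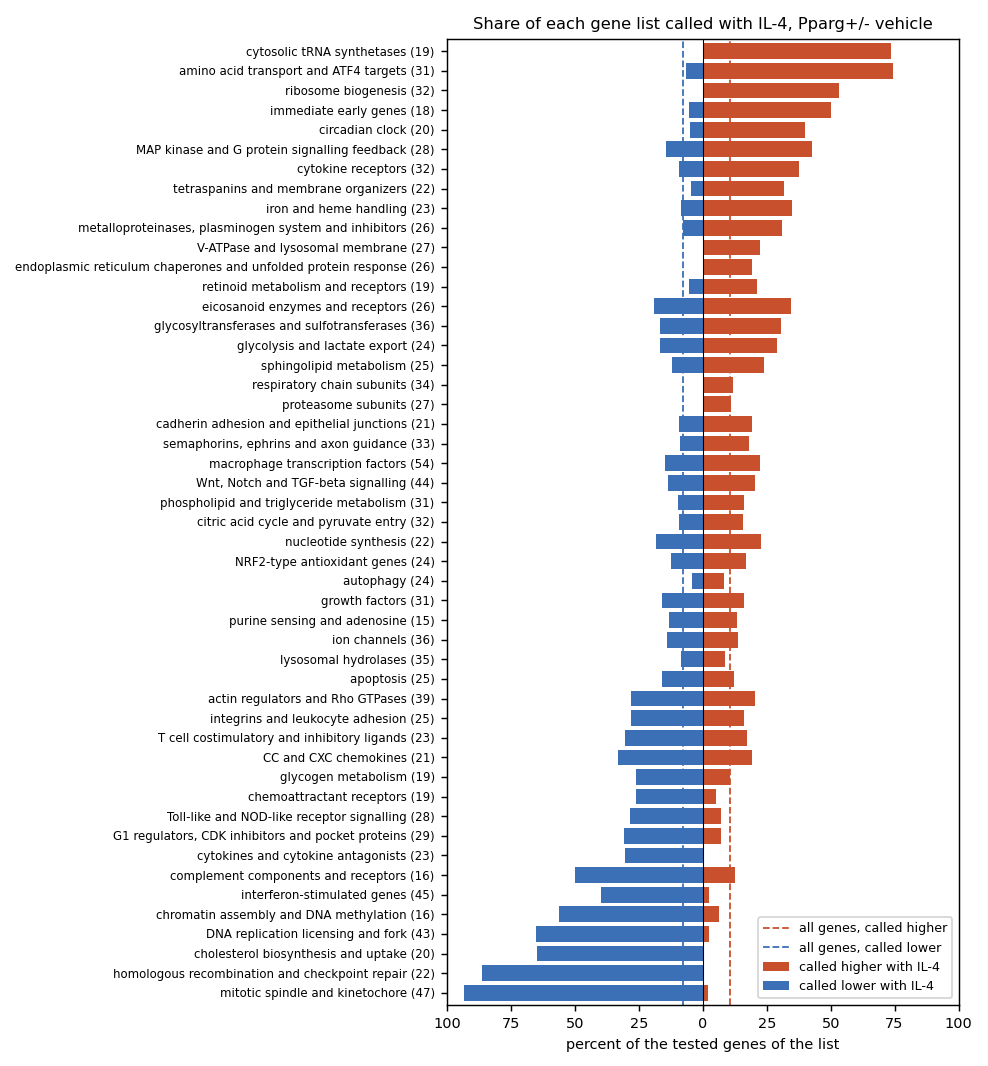
Percent of the tested genes of 49 gene lists (number tested in parentheses, lists of at least 15 genes) that were called higher (red, to the right) or lower (blue, to the left) with IL-4; dashed lines are the shares over all 17737 genes, 10.5% and 7.92%. Amino acid genes, tRNA synthetases and ribosome biogenesis stand at the top and spindle, repair, sterol and replication genes at the bottom.

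Every called gene of cholesterol synthesis was lower. Of 20 genes of the pathway and of uptake, 13 were called lower and 0 higher (65%, median -0.92), and the same counts were found without the control of mouse 1. Fdps, which makes farnesyl pyrophosphate, went from 1.62, 2.15 and 1.44 to 0.570, 0.302 and 0.334 (log2 change -2.15 ± 0.26, adjusted p = 1e-05). Fdft1, squalene synthase, went from 1.73, 1.75 and 1.27 to 0.602, 0.460 and 0.505 (log2 change -1.59 ± 0.20, adjusted p = 1.3e-05). Cyp51, lanosterol demethylase, went from 1.55, 1.60 and 1.52 to 0.501, 0.387 and 0.447 (log2 change -1.81 ± 0.20, adjusted p = 2.6e-06). The groups did not overlap in any of them. Srebf2, the transcription factor of the pathway, fell from 1.28, 1.14 and 1.17 to 0.756, 0.499 and 0.500 (log2 change -1.06 ± 0.20, adjusted p = 0.00087). Hmgcs1, an early enzyme, was at 1.32, 1.12 and 1.18 without IL-4 and at 1.34, 0.776 and 0.880 with it and was not called.

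The member with the largest fall, Idi1, the isomerase before Fdps, went from 1.77, 2.23 and 1.62 to 0.515, 0.217 and 0.258 (log2 change -2.60 ± 0.31, adjusted p = 8.8e-06). Its promoter is shown for that reason (the 250 bases before the start, chr13:8885356-8885605, plus strand, RefSeq GRCm38.p6), with CCAAT in capitals, here on the other strand as ATTGG.
Idi1: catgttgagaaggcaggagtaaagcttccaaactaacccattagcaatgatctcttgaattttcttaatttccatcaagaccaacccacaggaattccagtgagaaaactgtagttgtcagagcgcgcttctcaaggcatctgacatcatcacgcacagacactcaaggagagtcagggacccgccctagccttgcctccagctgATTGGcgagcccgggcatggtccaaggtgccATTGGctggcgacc
It held 2, and TCACNCCAC, the core of the sterol response element, was not in this window on either strand. CCAAT was in 93.8% of 16 sterol promoters with an entry, against 35.6% of all, and TCACNCCAC in 6.25%, against 1.01%. With only 16 promoters, the share of TCACNCCAC is too coarse to set against that of all.

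Lipid mediators and membrane lipids changed in both directions. In the eicosanoid list 9 of 26 genes rose and 5 fell. Ptgir, the prostacyclin receptor, went from 0.256, 0.322 and 0.238 to 2.78, 4.46 and 3.48 (log2 change 3.70 ± 0.24, adjusted p = 1.1e-08). Ptger2, a prostaglandin E2 receptor, went from 0.520, 0.291 and 0.395 to 1.98, 1.74 and 1.86 (log2 change 2.25 ± 0.22, adjusted p = 8.8e-07). For both receptors every IL-4 array was above every control. Hpgd, which inactivates prostaglandins, fell from 2.59, 2.86 and 4.47 to 0.147, 0.0535 and 0.176 (log2 change -4.85 ± 0.46, adjusted p = 6.7e-07). Hpgds, a prostaglandin D synthase, fell from 1.72, 1.46 and 1.80 to 0.305, 0.201 and 0.208 (log2 change -2.82 ± 0.40, adjusted p = 4.3e-05). Of 25 sphingolipid genes 6 rose and 3 fell (24% and 12%, against 10.5% and 7.92% of all genes). Sphk1, which makes sphingosine 1-phosphate, went from 0.409, 0.418 and 0.264 to 4.37, 4.05 and 5.17 (log2 change 3.66 ± 0.38, adjusted p = 1.8e-06). St3gal5, which makes the ganglioside GM3, fell from 1.41, 1.69 and 1.82 to 0.461, 0.329 and 0.448 (log2 change -2.0 ± 0.23, adjusted p = 5.6e-06). Phospholipid and triglyceride genes were called in 5 of 31 cases upward and 3 downward (16.1% and 9.68%, against 10.5% and 7.92% of all genes). The rises were 8 without the control of mouse 1 and 2 without that of mouse 2. Plpp3, a phosphatase of lysophosphatidic acid and related lipids, went from 0.264, 0.281 and 0.330 to 1.65, 2.44 and 1.88 (log2 change 2.76 ± 0.29, adjusted p = 1.7e-06).

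Sugar uptake and glycolysis had 7 of 24 genes higher and 4 lower, and isoforms of 1 step could go opposite ways. Slc2a1, a glucose transporter, rose from 0.622, 0.769 and 0.636 to 1.52, 1.73 and 1.45 (log2 change 1.22 ± 0.14, adjusted p = 7.4e-06). Slc2a3, another, fell from 1.97, 1.40 and 1.49 to 0.506, 0.580 and 0.625 (log2 change -1.49 ± 0.29, adjusted p = 0.0011). Phosphofructokinases were split in the same way. Pfkp, the platelet form, rose from 0.745, 0.699 and 0.642 to 1.49, 1.49 and 1.49 (log2 change 1.10 ± 0.11, adjusted p = 1.4e-06). Pfkm, the muscle form, fell from 1.83, 1.29 and 1.74 to 0.915, 0.549 and 0.592 (log2 change -1.26 ± 0.21, adjusted p = 0.00032). Aldoc, an aldolase, fell from 1.76, 1.92 and 1.56 to 0.287, 0.278 and 0.316 (log2 change -2.57 ± 0.27, adjusted p = 2.2e-06). This was the largest fall of the list and came with a small rise of another aldolase, Aldoa (0.69). Slc16a1, the lactate carrier, rose from 0.525, 0.670 and 0.483 to 1.16, 1.53 and 1.37 (log2 change 1.28 ± 0.21, adjusted p = 0.00023). Of 34 respiratory chain genes 4 rose and 0 fell (11.8%, against 10.5% of all genes), with a median of 0.34. The 4 became 2 with array medians centred and 7 without the control of mouse 2. In the citric acid cycle list 5 of 32 rose (15.6%) and 3 fell (9.38%, against 7.92% of all genes), with 2 rises when array medians were centred. Me1, malic enzyme, fell from 1.38, 1.58 and 1.46 to 0.145, 0.169 and 0.455 (log2 change -2.72 ± 0.62, adjusted p = 0.004).

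Of 23 iron and heme genes 8 rose and 2 fell, with the uptake receptor among the former and the exporter among the latter. Tfrc, the transferrin receptor, went from 0.257, 0.261 and 0.260 to 2.50, 1.98 and 1.80 (log2 change 3.00 ± 0.28, adjusted p = 6.8e-07). Slc40a1, the iron exporter ferroportin, went from 2.13, 1.71 and 2.37 to 0.235, 0.0944 and 0.153 (log2 change -3.77 ± 0.47, adjusted p = 1.2e-05). In both genes the groups were separated in all 3 mice. Slc48a1, a heme transporter of the lysosome, rose from 0.705, 0.621 and 0.676 to 1.42, 1.30 and 1.40 (log2 change 1.04 ± 0.11, adjusted p = 2.6e-06). The other gene that fell was Hp, which encodes haptoglobin. It was at 4.55, 1.42 and 2.65 without IL-4 and at 0.284, 0.856 and 0.184 with it, highest on the control of mouse 1, and its log2 change was -2.86 with that array and -2.45 without it (adjusted p = 0.018).

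Of 27 genes of the vacuolar proton pump and lysosomal membrane 6 rose (22.2%, against 10.5% of all genes) and 0 fell (median 0.26). Atp6v0a1, a pump subunit, went from 0.492, 0.571 and 0.552 to 1.26, 1.32 and 1.32 (log2 change 1.28 ± 0.17, adjusted p = 1.8e-05). Atp6v1h, another subunit, went from 0.536, 0.585 and 0.528 to 1.22, 1.21 and 1.20 (log2 change 1.14 ± 0.12, adjusted p = 2.7e-06). Mitf, a transcription factor of lysosome and osteoclast genes, went from 0.624, 0.515 and 0.581 to 1.44, 1.36 and 1.34 (log2 change 1.27 ± 0.20, adjusted p = 0.00017). Values within each group lay close together. Lysosomal hydrolases were mostly not called, with 3 of 35 higher and 3 lower (8.57% each, against 10.5% and 7.92% of all genes). Ctsl, cathepsin L, rose from 0.384, 0.395 and 0.362 to 2.30, 2.22 and 2.43 (log2 change 2.61 ± 0.22, adjusted p = 2.3e-07). Acp5, tartrate-resistant acid phosphatase, rose from 0.274, 0.284 and 0.224 to 2.05, 1.89 and 1.93 (log2 change 2.92 ± 0.39, adjusted p = 2.3e-05). Ctsc, cathepsin C, which activates granule proteases, fell from 5.59, 2.07 and 2.12 to 0.817, 0.655 and 0.488 (log2 change -2.19 ± 0.31, adjusted p = 5.5e-05). The control of mouse 1 was its highest value, and without it the log2 change was -1.71 (adjusted p = 0.00029).

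Of 28 genes that restrain MAP kinase or G protein signalling 12 rose (42.9%, against 10.5% of all genes) and 4 fell, 2 without the IL-4 array of mouse 1 or 3. Dusp4, a MAP kinase phosphatase, went from 0.235, 0.506 and 0.334 to 1.51, 2.58 and 2.15 (log2 change 2.58 ± 0.27, adjusted p = 1.7e-06). Dusp5, of the same family, went from 0.491, 0.591 and 0.380 to 1.63, 1.25 and 1.44 (log2 change 1.58 ± 0.22, adjusted p = 3.9e-05). Cblb, a ubiquitin ligase, went from 0.381, 0.511 and 0.412 to 1.39, 1.61 and 1.70 (log2 change 1.86 ± 0.18, adjusted p = 9.2e-07). Not all the phosphatases rose. Dusp7 fell from 1.59, 1.61 and 1.22 to 0.726, 0.759 and 0.692 (log2 change -1.01 ± 0.14, adjusted p = 3.6e-05). Socs3, the suppressor of STAT3 signalling, was at 11.1, 1.45 and 0.895 without IL-4 and at 0.374, 1.10 and 0.478 with it, so the groups overlapped. Its call (log2 change -2.07 ± 0.64, adjusted p = 0.03) rested on the control of mouse 1: without it the log2 change was -0.97 (adjusted p = 0.19). It was also lost without the IL-4 array of mouse 1 or of mouse 3.

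Of 18 immediate early genes, which cells switch on within minutes of a stimulus, 9 were called higher at day 10 (50%, against 10.5% of all genes) and 1 lower (median 1.08). Fos, Egr1 and Ier2 were not called, and their groups overlapped. Fosb, Nr4a3 and Zfp36 were not called either. Fosl2, a subunit of AP-1, went from 0.579, 0.518 and 0.397 to 1.63, 1.97 and 1.71 (log2 change 1.84 ± 0.17, adjusted p = 4.5e-07). Atf3, a stress-induced factor of the ATF family, went from 0.550, 0.491 and 0.594 to 1.59, 1.5 and 1.45 (log2 change 1.48 ± 0.18, adjusted p = 8.5e-06). The one that fell was Egr3, a zinc finger factor, from 2.55, 2.65 and 1.68 to 0.463, 0.455 and 0.512 (log2 change -2.24 ± 0.26, adjusted p = 6.5e-06). Of 20 clock genes 8 rose, 5 without the IL-4 array of mouse 3, and 1 fell. Bhlhe40, a repressor, went from 0.237, 0.338 and 0.339 to 2.19, 2.48 and 2.11 (log2 change 2.91 ± 0.17, adjusted p = 4.9e-09). Nfil3, another repressor, went from 0.539, 0.155 and 0.237 to 2.84, 2.29 and 2.37 (log2 change 3.20 ± 0.36, adjusted p = 3.7e-06). Npas2, a partner of BMAL1, went from 0.461, 0.591 and 0.604 to 2.21, 1.81 and 1.86 (log2 change 1.83 ± 0.16, adjusted p = 3e-07). Activators were thus among the rises as well as repressors. Arntl, which encodes BMAL1, rose from 0.584, 0.627 and 0.596 to 1.40, 1.76 and 1.69 (log2 change 1.42 ± 0.18, adjusted p = 1.2e-05). Per3, a period protein, fell from 1.25, 1.07 and 1.10 to 0.475, 0.550 and 0.623 (log2 change -1.06 ± 0.21, adjusted p = 0.0013).

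Of 54 transcription factors of macrophages 12 rose and 8 fell (22.2% and 14.8%, against 10.5% and 7.92% of all genes). Batf3, known from the development of dendritic cells, went from 0.424, 0.398 and 0.267 to 2.40, 1.89 and 1.81 (log2 change 2.50 ± 0.24, adjusted p = 7.9e-07). Klf9, a Krüppel-like factor, went from 0.302, 0.289 and 0.332 to 1.73, 1.79 and 1.60 (log2 change 2.48 ± 0.31, adjusted p = 1.2e-05). Runx3, of the Runt family, went from 0.650, 0.825 and 0.653 to 2.64, 3.58 and 2.83 (log2 change 2.08 ± 0.26, adjusted p = 1e-05). The groups did not overlap in these. Id3, an inhibitor of helix-loop-helix factors, fell from 1.88, 2.60 and 2.17 to 0.112, 0.0524 and 0.0560 (log2 change -4.99 ± 0.61, adjusted p = 1e-05). Maf, a factor that restrains macrophage self-renewal, fell from 1.98, 1.85 and 1.69 to 0.307, 0.224 and 0.255 (log2 change -2.82 ± 0.33, adjusted p = 5.5e-06). Id1, of the same family as Id3, fell by 3.18 on the log2 scale.

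Receptors for cytokines rose more often than they fell, with 12 of 32 higher and 3 lower (1 lower without the control of mouse 3). Il27ra, a subunit of the IL-27 receptor, went from 0.134, 0.105 and 0.105 to 1.77, 2.48 and 3.34 (log2 change 4.42 ± 0.75, adjusted p = 0.00029). Il1rl2, the IL-36 receptor, went from 0.211, 0.268 and 0.267 to 2.11, 2.32 and 2.61 (log2 change 3.24 ± 0.35, adjusted p = 2.7e-06). Il6st, gp130, the shared chain of the IL-6 family, went from 0.414, 0.286 and 0.352 to 1.57, 1.48 and 1.63 (log2 change 2.17 ± 0.20, adjusted p = 5e-07). Every IL-4 array was above every control in all 3. Il17ra, the IL-17 receptor, fell from 1.97, 1.76 and 1.90 to 0.353, 0.343 and 0.284 (log2 change -2.53 ± 0.24, adjusted p = 7.4e-07). Il1r1, the signalling IL-1 receptor, rose with vehicle from 0.164, 0.208 and 0.217 to 4.16, 2.99 and 4.87 (log2 change 4.33 ± 0.94, adjusted p = 0.0027). Its log2 change with RSG was 0.25, and the difference between the 2 responses was not called (adjusted p = 0.91). Of 23 cytokines 0 rose (1 without the control of mouse 3) and 7 fell, 4 without the IL-4 array of mouse 2. Il16, a ligand of CD4, fell from 1.66, 1.27 and 1.47 to 0.240, 0.178 and 0.181 (log2 change -2.88 ± 0.42, adjusted p = 6.6e-05). Il18, of the IL-1 family, fell from 1.61, 1.27 and 1.33 to 0.796, 0.599 and 0.574 (log2 change -1.10 ± 0.13, adjusted p = 7.5e-06). Il10, an anti-inflammatory cytokine, fell from 2.17, 1.92 and 0.957 to 0.773, 0.265 and 0.150 (log2 change -2.34 ± 0.45, adjusted p = 0.00097).

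Of 31 growth factors 5 rose and 5 fell, 16.1% each against 10.5% and 7.92% of all genes. Hbegf, a ligand of the epidermal growth factor receptor, went from 0.411, 0.599 and 0.465 to 2.33, 2.83 and 3.22 (log2 change 2.51 ± 0.23, adjusted p = 4.7e-07). Pdgfa, a platelet-derived growth factor, went from 0.760, 0.915 and 0.672 to 1.46, 1.88 and 1.81 (log2 change 1.14 ± 0.14, adjusted p = 8.5e-06). Igf1, an insulin-like growth factor, went from 0.666, 0.713 and 0.708 to 1.67, 1.54 and 1.35 (log2 change 1.12 ± 0.11, adjusted p = 1e-06). In these the 3 mice responded alike. Tgfb2, of the TGFβ family, fell from 1.69, 1.55 and 1.25 to 0.277, 0.151 and 0.185 (log2 change -2.91 ± 0.55, adjusted p = 0.00078). Pdgfc, another platelet-derived growth factor, fell from 1.99, 1.74 and 1.69 to 0.387, 0.397 and 0.348 (log2 change -2.25 ± 0.22, adjusted p = 8.3e-07). Stromal cells make some of these factors as well, and the part of the stromal fall in them was not tested.

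Channels and nucleotide receptors had single large changes. Kcnq1, a potassium channel of heart and epithelia, went from 0.110, 0.118 and 0.198 to 2.96, 2.73 and 2.88 (log2 change 4.38 ± 0.45, adjusted p = 1.7e-06). Of 36 ion channels 5 rose and 5 fell, 8 with array medians centred. With all arrays these were 13.9% each, against 10.5% and 7.92% of all genes. Of 15 genes of purine sensing 2 rose and 2 fell, 13.3% each against 10.5% and 7.92% of all genes. Leaving out 1 array moved these counts (3 and 1 without the control of mouse 1). ADP receptors were on both sides. P2ry1 rose from 0.387, 0.387 and 0.364 to 1.59, 1.46 and 2.14 (log2 change 2.17 ± 0.26, adjusted p = 8.7e-06). P2ry12, a marker of microglia, fell from 2.08, 1.56 and 2.95 to 0.264, 0.138 and 0.260 (log2 change -3.33 ± 0.34, adjusted p = 1.4e-06).

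Retinoid genes held some of the largest rises. Rbp4, the plasma carrier of retinol, was at 0.105, 0.217 and 0.167 without IL-4 and at 2.55, 33.0 and 10.2 with it (log2 change 5.93 ± 0.65, adjusted p = 2.8e-06), with the IL-4 arrays far apart. Aldh1a2, which makes retinoic acid, was at 0.0168, 0.0717 and 0.109 without IL-4 and at 2.44, 2.25 and 1.89 with it (log2 change 5.42 ± 1.05, adjusted p = 0.001), with the IL-4 arrays close together. Both were far above the controls in every mouse. Rarb, a retinoic acid receptor, was at 0.917, 0.290 and 0.534 without IL-4 and at 4.71, 2.90 and 2.90 with it (log2 change 2.71 ± 0.79, adjusted p = 0.021), a call lost without the control of mouse 2 or 3 or the IL-4 array of mouse 1. Rarg, another, was at 0.772, 0.469 and 0.724 without IL-4 and at 1.18, 1.39 and 1.03 with it (log2 change 0.90 ± 0.24, adjusted p = 0.012), a call lost without the control or the IL-4 array of mouse 2. Of 19 retinoid genes 4 rose, 2 without the control of mouse 2, and 1 fell. This was Rdh11, a retinal reductase, from 1.16, 1.05 and 1.24 to 0.811, 0.555 and 0.763, a call lost without the IL-4 array of mouse 2.

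Genes of complement and of Toll-like and NOD-like receptor signalling fell more often than they rose. In complement, 8 of 16 fell and 2 rose (median -0.80), and without the control of mouse 1, 6 fell and 2 rose (median -0.60). Vsig4, a receptor for C3b, fell from 2.81, 6.98 and 7.79 to 0.262, 0.0897 and 0.611 (log2 change -4.46 ± 0.92, adjusted p = 0.0018). C1qa, a chain of C1q, fell from 1.72, 1.65 and 1.47 to 0.893, 0.454 and 0.525 (log2 change -1.43 ± 0.26, adjusted p = 0.0006). Among the rises was Itgam, the α chain of complement receptor 3, from 0.836, 0.796 and 0.722 to 2.00, 1.49 and 1.64 (log2 change 1.11 ± 0.14, adjusted p = 1.6e-05). Of 28 genes of Toll-like and NOD-like receptor signalling 8 fell and 2 rose, 1 without the control of mouse 2 or 3 or the IL-4 array of mouse 1 or 3. Tlr7, a sensor of RNA, fell from 1.65, 1.20 and 1.55 to 0.729, 0.504 and 0.554 (log2 change -1.30 ± 0.18, adjusted p = 3.2e-05). Nfkbiz, a nuclear IκB protein, fell from 2.98, 1.93 and 1.63 to 0.382, 0.307 and 0.373 (log2 change -2.58 ± 0.26, adjusted p = 1.1e-06). The list also held a rise of an inhibitor. Tnfaip3, which restrains NF-κB, rose from 0.900, 0.942 and 0.854 to 1.41, 1.71 and 1.5 (log2 change 0.77 ± 0.14, adjusted p = 0.00074). Of 9 genes of the Fc receptor list 1 rose and 2 fell (11.1% and 22.2%, against 10.5% and 7.92% of all genes). Without the control of mouse 1, 1 fell. The rise was of Fcgr2b, from 0.770, 0.718 and 0.721 to 1.35, 1.37 and 1.30 (log2 change 0.86 ± 0.14, adjusted p = 0.0002). Fcgr1, the high-affinity IgG receptor, fell from 4.70, 1.61 and 1.83 to 0.609, 0.521 and 0.650 (log2 change -2.02 ± 0.28, adjusted p = 3.6e-05). The control of mouse 1 was its highest value, and without it the log2 change was -1.54 (adjusted p = 3.3e-05).

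Chemokines and their receptors fell more often than they rose. Ccl3, an inflammatory chemokine, went from 1.87, 2.91 and 2.18 to 0.367, 0.353 and 0.328 (log2 change -2.71 ± 0.26, adjusted p = 7.9e-07). Ccl4, its neighbour in the genome, went from 2.33, 3.65 and 1.78 to 0.329, 0.30 and 0.291 (log2 change -3.01 ± 0.32, adjusted p = 1.9e-06). Both were lower in every mouse. Ccl6, of the CCR1 ligands, rose from 0.626, 0.566 and 0.589 to 1.57, 1.41 and 1.19 (log2 change 1.22 ± 0.18, adjusted p = 6.2e-05). Ccl9, of the same group, rose from 0.687, 0.755 and 0.680 to 1.55, 1.52 and 1.33 (log2 change 1.05 ± 0.11, adjusted p = 1.4e-06). Of 21 chemokines 4 rose and 7 fell. The falls were 4 without the control of mouse 1 or the IL-4 array of mouse 3, and the rises were 2 without the control of mouse 2 or 3 or the IL-4 array of mouse 1 or 3. Ccl8, a ligand of CCR8, was at 1.71, 0.236 and 0.257 without IL-4 and at 2.01, 1.65 and 1.37 with it, so the groups overlapped. Its call (log2 change 1.82 ± 0.56, adjusted p = 0.029) was kept without the control of mouse 1 (log2 change 2.75, adjusted p = 0.00019) and lost when any of the other 5 arrays was left out. Of 19 chemoattractant receptors 5 fell and 1 rose, 2 without the control of mouse 1. Cxcr3, a receptor for interferon-induced chemokines, fell from 2.06, 1.91 and 2.07 to 0.378, 0.318 and 0.285 (log2 change -2.63 ± 0.21, adjusted p = 1.7e-07). Ccr2, of monocyte recruitment, fell from 2.30, 1.51 and 1.70 to 0.807, 0.466 and 0.440 (log2 change -1.72 ± 0.27, adjusted p = 0.00015).

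Of 23 ligands that stimulate or inhibit T cells 4 rose and 7 fell, 17.4% and 30.4% against 10.5% and 7.92% of all genes. Without the control of mouse 1 the balance turned, with 5 higher and 4 lower. Tnfsf14, which encodes LIGHT, fell from 6.24, 3.62 and 2.73 to 0.398, 0.190 and 0.112 (log2 change -4.28 ± 0.58, adjusted p = 2.9e-05). Havcr2, which encodes TIM-3, fell from 1.48, 1.52 and 1.46 to 0.344, 0.488 and 0.490 (log2 change -1.77 ± 0.24, adjusted p = 3.3e-05). Pvr, a ligand of TIGIT, rose from 0.700, 0.684 and 0.637 to 1.17, 1.22 and 1.48 (log2 change 0.93 ± 0.11, adjusted p = 5.2e-06). Cd274, which encodes the PD-1 ligand PD-L1, had 1 control near the IL-4 arrays, that of mouse 1. It was at 1.00, 0.247 and 0.323 without IL-4 and at 1.25, 1.34 and 1.22 with it (log2 change 1.56 ± 0.50, adjusted p = 0.036). Without that control its log2 change was 2.17 (adjusted p = 0.0047), and its call was lost when any of the other 5 arrays was left out.

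Adhesion and cytoskeletal genes changed in both directions. Of 25 integrins and adhesion molecules 4 rose, 2 without the control of mouse 2, and 7 fell. With all arrays these were 16% and 28%, against 10.5% and 7.92% of all genes. Itgb3, a chain of the vitronectin receptor, rose from 0.309, 0.389 and 0.303 to 1.99, 2.95 and 2.37 (log2 change 2.86 ± 0.23, adjusted p = 1.3e-07). Vcam1, an integrin ligand, fell from 2.29, 2.40 and 2.91 to 0.601, 0.591 and 0.656 (log2 change -2.03 ± 0.35, adjusted p = 0.00036). Icam1, another integrin ligand, fell from 4.11, 1.65 and 1.96 to 0.401, 0.196 and 0.222 (log2 change -3.19 ± 0.44, adjusted p = 3.3e-05). The control of mouse 1 was the highest for Icam1, whose log2 change without it was -2.79. Pkp2, a desmosome protein, rose from 0.0960, 0.118 and 0.0952 to 2.39, 3.04 and 2.93 (log2 change 4.76 ± 0.43, adjusted p = 5.1e-07). Gja1, connexin 43, fell from 2.09, 2.95 and 1.70 to 0.236, 0.457 and 0.434 (log2 change -2.60 ± 0.31, adjusted p = 8.2e-06). Of 39 actin regulators 8 rose and 11 fell, 7 without the control of mouse 1. Rhoc, a small GTPase, rose from 0.550, 0.615 and 0.666 to 1.57, 1.59 and 1.58 (log2 change 1.38 ± 0.14, adjusted p = 1.3e-06). Rhob, of the same family, rose from 0.553, 0.756 and 0.675 to 2.07, 1.47 and 1.81 (log2 change 1.43 ± 0.15, adjusted p = 2.5e-06). Coro1a, an actin-binding protein of leukocytes, fell from 2.32, 2.27 and 1.99 to 0.310, 0.199 and 0.168 (log2 change -3.33 ± 0.44, adjusted p = 2.2e-05).

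Matrix and surface modifiers were mixed as well, with 8 of 26 proteases and inhibitors of the matrix higher and 2 lower, 1 lower without the control of mouse 1 or the IL-4 array of mouse 2 or 3. Mmp13, a collagenase, went from 0.426, 0.397 and 0.422 to 2.91, 4.66 and 3.90 (log2 change 3.18 ± 0.22, adjusted p = 2.5e-08). Timp2, a metalloproteinase inhibitor, went from 0.733, 0.568 and 0.619 to 1.56, 1.53 and 1.36 (log2 change 1.22 ± 0.17, adjusted p = 3.9e-05). Plau, urokinase, fell from 0.961, 1.80 and 1.34 to 0.523, 0.363 and 0.587 (log2 change -1.46 ± 0.23, adjusted p = 0.00015). Of 22 tetraspanins and related proteins 7 rose and 1 fell. Cd151, which binds laminin receptors, had each group within a narrow range. It went from 0.533, 0.516 and 0.527 to 1.42, 1.44 and 1.44 (log2 change 1.45 ± 0.12, adjusted p = 1.6e-07). Of 36 glycosyltransferases and sulfotransferases 11 rose, 6 with array medians centred, and 6 fell. Galnt6, which starts O-glycans, rose from 0.487, 0.649 and 0.570 to 1.33, 1.61 and 1.88 (log2 change 1.5 ± 0.15, adjusted p = 1.1e-06). Galnt3, of the same family, fell from 1.80, 3.22 and 2.63 to 0.373, 0.648 and 0.321 (log2 change -2.54 ± 0.40, adjusted p = 0.00014). Guidance genes, of which 6 of 33 rose and 3 fell (18.2% and 9.09%, against 10.5% and 7.92% of all genes), had semaphorins on both sides. The rises were 3 with array medians centred, without the control of mouse 3 or without the IL-4 array of mouse 2. Sema4b rose from 0.697, 0.660 and 0.624 to 1.73, 2.85 and 2.44 (log2 change 1.80 ± 0.18, adjusted p = 1e-06). Sema4d fell from 1.66, 1.47 and 1.38 to 0.631, 0.397 and 0.420 (log2 change -1.66 ± 0.22, adjusted p = 2e-05).

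Of 25 apoptosis genes 3 rose and 4 fell, shares of 12% and 16% against 10.5% and 7.92% of all genes. Bcl2, which protects cells, rose from 0.426, 0.786 and 0.616 to 1.39, 1.65 and 1.5 (log2 change 1.35 ± 0.24, adjusted p = 0.00041). Casp6, an executioner caspase, rose from 0.695, 0.669 and 0.680 to 1.29, 1.61 and 1.48 (log2 change 1.09 ± 0.16, adjusted p = 5.5e-05). Pmaip1, which encodes NOXA, fell from 2.44, 2.22 and 2.45 to 0.456, 0.326 and 0.443 (log2 change -2.55 ± 0.17, adjusted p = 1.4e-08). Bid, a link from death receptors to mitochondria, fell from 1.5, 1.40 and 1.35 to 0.645, 0.637 and 0.695 (log2 change -1.10 ± 0.12, adjusted p = 2.8e-06). Fas, a death receptor, fell from 2.37, 1.77 and 1.34 to 0.450, 0.638 and 0.414 (log2 change -1.85 ± 0.36, adjusted p = 0.00097). In none of these 5 genes did the groups overlap. Of 24 autophagy genes 2 rose (8.33%) and 1 fell (4.17%), shares below those of all genes. Of 24 antioxidant genes of the NRF2 type 4 rose (16.7%) and 3 fell (12.5%). Of 44 genes of Wnt, Notch and TGFβ signalling 9 rose (20.5%), 5 without the IL-4 array of mouse 3, and 6 fell (13.6%).

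For interferon-stimulated genes 1 control array decided much of the result. With all arrays, 18 of 45 fell and 1 rose (40% lower, against 7.92% of all genes; median -0.82). Without the control of mouse 1, 12 fell and 2 rose (against 6.55% lower over all genes) and the median was -0.30, and without the control of mouse 2, 29 fell, 0 rose and the median was -1.23. With only the 6 arrays in the fit 6 fell. On the control array of mouse 1 the mean log2 ratio of the list was 1.81, and on the other 2 controls -0.09 and 0.32. On the array of mouse 1 without IL-4 but with RSG it was -0.01, so the other culture of this mouse without IL-4 did not share the elevation. The antiviral genes Oas2, Oas3, Ifit1 and Ifit2 were called with and without that array. Oas3, a 2′-5′-oligoadenylate synthase, was at 7.34, 2.04 and 2.02 without IL-4 and at 0.683, 0.325 and 0.183 with it (log2 change -3.18 ± 0.57, adjusted p = 0.00051), and without the control of mouse 1 its log2 change was -2.56 (adjusted p = 0.0062). Oas2 was at 3.52, 1.68 and 1.77 without IL-4 and at 0.351, 0.223 and 0.423 with it (log2 change -2.77 ± 0.37, adjusted p = 2.3e-05, and -2.43 without that control). In both, the other 2 controls were also above all IL-4 arrays. Ifit2 was at 14.3, 1.62 and 1.99 without IL-4 and at 0.539, 0.659 and 0.810 with it, a log2 change of -2.44 with and -1.45 without the control of mouse 1 (adjusted p = 0.0009).

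The calls of other members rested on that array. Ifit3, an antiviral protein, was at 8.12, 1.10 and 2.50 without IL-4 and at 1.09, 0.710 and 0.554 with it (log2 change -1.90 ± 0.49, adjusted p = 0.01), and without the control of mouse 1 its change was -1.14 (adjusted p = 0.064). Mx1, an antiviral GTPase, was at 6.99, 1.19 and 2.61 without IL-4 and at 1.09, 0.529 and 0.878 with it, and its log2 change was -1.81 with and -1.15 without that control (adjusted p = 0.19). Its call was also lost without the control of mouse 3 or the IL-4 array of mouse 2 or 3, and that of Ifit3 without the IL-4 array of mouse 3. The calls of Oasl2, Dhx58, Xaf1 and Irf9 were lost in the same way. Gbp2, a guanylate-binding protein, was at 8.43, 0.250 and 0.525 without IL-4 and at 1.37, 0.981 and 1.24 with it. It was not called with all arrays (log2 change 0.20 ± 0.77, adjusted p = 0.91) but was called higher with IL-4 without the control of mouse 1 (1.71, adjusted p = 0.0045). Cxcl10, a chemokine induced by interferons, was at 39.6, 1.43 and 2.65 without IL-4 and at 0.963, 0.206 and 0.575 with it, and its fall (log2 change -3.46 ± 0.92, adjusted p = 0.012) was not called without the control of mouse 1 (log2 change -2.01, adjusted p = 0.096) or without the IL-4 array of mouse 2. Genes chosen after these values were seen, as far above both other controls on that array, included Acod1, which makes itaconate, with control ratios of 126, 0.237 and 0.838. The interferon-inducible GTPase Iigp1 had 92.0, 0.733 and 1.28, and the acute-phase gene Saa3 had 18.9, 0.523 and 0.703.

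The promoter of Oas3 (chr5:120777660-120777909, minus strand, RefSeq GRCm38.p6, the 250 bases before the start) is shown because Oas3 had the largest fall of the called interferon-stimulated genes with an entry. Capitals mark the core of the interferon response element, GAAANNGAAA on either strand.
Oas3: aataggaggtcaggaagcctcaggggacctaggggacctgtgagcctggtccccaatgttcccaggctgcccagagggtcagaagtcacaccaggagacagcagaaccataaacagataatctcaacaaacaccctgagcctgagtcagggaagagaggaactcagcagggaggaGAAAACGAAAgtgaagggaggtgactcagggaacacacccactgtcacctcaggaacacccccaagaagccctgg
The element lay 75 to 66 bases before the start. It was in 41.2% of 34 promoters of this list and in 2.63% of all. For Selp, among the largest rises (chr1:164115014-164115263, plus strand), the palindrome TTCNNNNGAA, of the type STAT6 binds, was looked for on both strands.
Selp: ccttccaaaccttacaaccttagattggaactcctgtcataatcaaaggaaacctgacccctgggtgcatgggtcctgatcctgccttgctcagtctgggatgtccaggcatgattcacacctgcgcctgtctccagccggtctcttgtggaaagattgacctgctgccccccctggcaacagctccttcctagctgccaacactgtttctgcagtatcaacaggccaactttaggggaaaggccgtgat
It was not in this window. It was in 4.83% of all promoters, 4.74% of those of genes called higher and 5.98% of those that rose at least 4-fold.

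**Figure D3:**
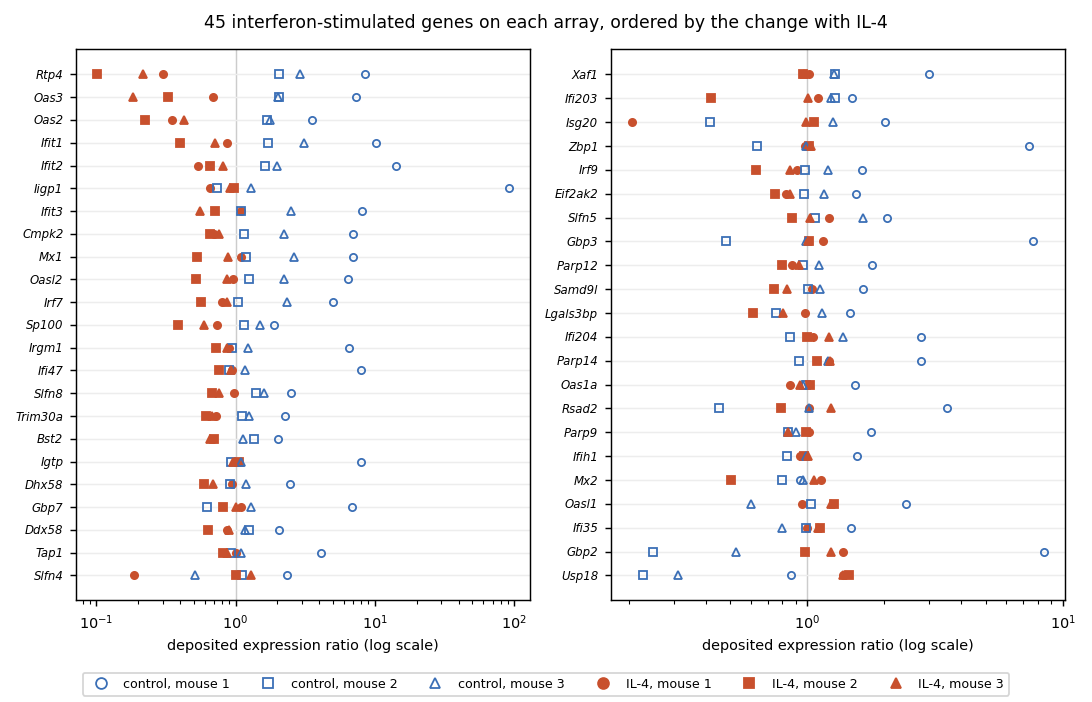
Deposited expression ratio (log scale) of the 45 interferon-stimulated genes on the 6 arrays, ordered by the log2 change with IL-4; open blue symbols are controls, filled red symbols IL-4, and the symbol gives the mouse. The control of mouse 1 (open circle) is the highest of the 6 arrays in 43 of the 45 genes, for example Ifit2 at 14.3 against 1.62 and 1.99, while Oas2 and Oas3 are separated on all 3 controls.

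The same calls were counted in cultures that share no array with these, but the counts are not independent. The probe set of each gene was the one that differed most between groups on the arrays of those other cultures. All calls also came from the same limma fit, with a shared residual variance. The part of this choice and of the shared fit in the agreement was not tested. In macrophages of the other 3 mice, Pparg fl/- with vehicle, 74.8% of the 1864 genes that rose and 80.2% of the 1405 that fell were called the same way, which is 69.6% of 2002 and 67.4% of 1672 called there, and 1 and 3 went the opposite way. The background is the share of all genes called there, 11.3% higher and 9.43% lower. For the falls that held without the control of mouse 1 the share was 88.5% of 1117, and for those lost without it 47.9% of 288. For rises these shares were 80% of 1643 and 36.2% of 221. In the same mice with RSG, 65.4% of the rises and 74% of the falls were called again (75.4% of 1617 and 76.6% of 1357 called there, which are 9.12% and 7.65% of all genes). By list, spindle genes fell in 44 of 47 in both settings, cholesterol genes in 13 of 20 in Pparg fl/- and 16 of 20 with RSG, and ribosome biogenesis rose in 10 and 8 of 32. Interferon-stimulated genes fell in 9 of 45 in Pparg fl/- and 10 of 45 with RSG.

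**Figure D4:**
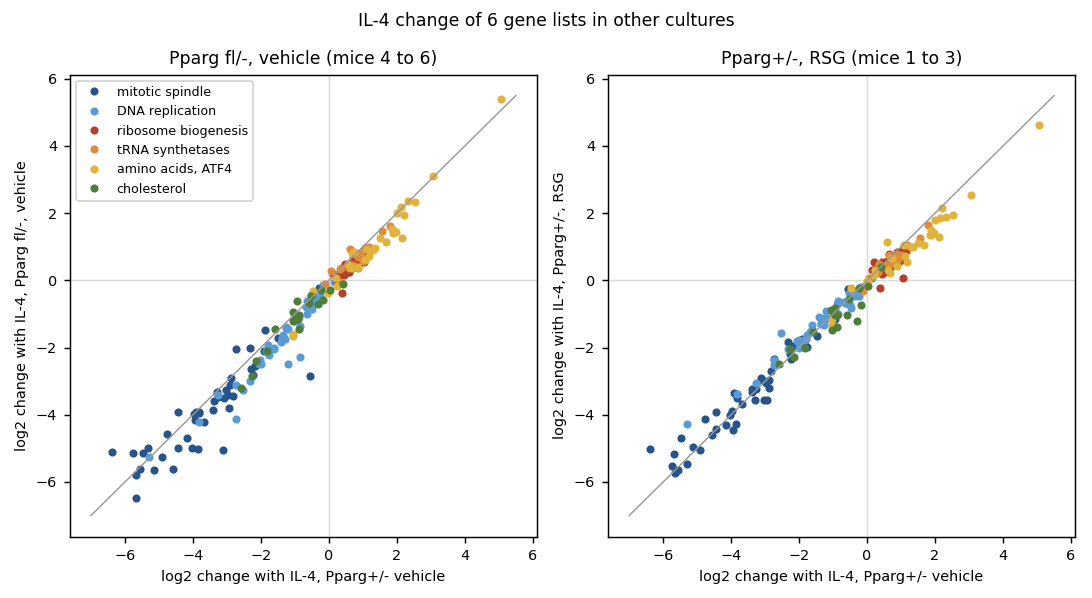
Log2 change with IL-4 of the genes of 6 lists in Pparg+/- cells with vehicle (horizontal axis) against that in Pparg fl/- cells with vehicle (left) and in Pparg+/- cells with RSG (right); each point is 1 gene and the grey line marks equal change. Spindle genes (median -3.39) lie at the lower left and amino acid genes (median 1.29) at the upper right in both panels.

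Whether the IL-4 response depended on the genotype or on RSG was tested as a difference of responses. Between Pparg+/- and Pparg fl/- cells with vehicle, limma called 0 of 43349 probe sets (0%), and 2095 (4.83%) had an unadjusted p under 0.05. The lowest adjusted p was 0.307, and the median SE of the difference was 0.484 on the log2 scale, so small differences could not be detected. Without the control of mouse 1, 1 was called, that of Pdgfra, a growth factor receptor of stromal cells (adjusted p = 0.0478). Between RSG and vehicle in Pparg+/- cells 1 probe set (0.00231%) and so 1 gene (0.00564%) was called, that of Gp5, a chain of the platelet von Willebrand factor receptor, and 2006 had an unadjusted p under 0.05. With vehicle, Gp5 was at 0.685, 1.15 and 0.888 without IL-4 and at 1.10, 0.843 and 0.914 with it and was not called (log2 change 0.09 ± 0.24, adjusted p = 0.86), and rose with IL-4 by 2.93 on the log2 scale in the RSG cultures (adjusted p = 2.6e-07). The difference was 2.84 ± 0.34 (SE, adjusted p = 0.005). With the mouse as a block its adjusted p was 0.066. Without the IL-4 array of mouse 3, Fcnb, a ficolin of neutrophils, was called as well (adjusted p = 0.0153).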

How the data were processed

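RNA of 24 cultures (2 genotypes, with or without IL-4 and RSG, 3 mice each) was hybridised to 24 Affymetrix mouse genome arrays. The authors made the deposited expression ratio from GC-RMA values in GeneSpring 7.3, dividing by the 50th percentile of the array and by the median of the probe set; a further division by vehicle controls, given in the methods, was not seen in the values. The submitters' processing notes name GCOS without a version. Of 45101 probe sets, 64 control probe sets and 1688 below the array median on all but at most 2 arrays were left out. The deposited ratios were floored at 0.01 (124 values) and taken to log2, and limma 3.58.1 in R 4.3.3 was fitted to 8 group means on all 24 arrays with a mean-variance trend, with Benjamini-Hochberg adjustment over 43349 probe sets. The platform annotation named 34945 probe sets with 1 gene, 932 with several and 9160 with none. Each of 17737 genes was read from its probe set with the largest group F statistic on the 18 arrays outside the comparison.

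Genes were named by rule: the 18 largest rises and falls without overlap, outside the usual markers and a fixed list of genes left out (such as Scn3a and Tk1), up to 4 called members of a list in each direction, Pparg, interferon genes whose call turned on the control of mouse 1, and called differences of responses. Markers, Scn3a, Tceal7, Tk1, Cldn11, Ppp1r3c, Hmgcs1, Idi1, Aldoa and genes high on that control were named outside it after their values were seen. Members and lists were chosen with earlier results of these data known. The same mice gave both groups, per the labels. The correlation of deviations from the group means was 0.030, 0.034 and 0.016 for arrays of the same mouse and -0.032 to 0.003 for others. Alternatives were other scalings, another floor, no filter, no trend, the 6 arrays alone, the mouse as a block, the methods' t-test, and leaving out each array. The fitting code was tested on simulated data.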

Additional observations from a re-analysis of the deposited data

Results flagged for a closer look

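Of the genes tested, Gp5, which encodes platelet glycoprotein V, was singled out because its IL-4 response differed between cultures with RSG and with vehicle by the test of the difference itself: the RSG response exceeded the vehicle response by 2.84 on the log2 scale (limma, adjusted p = 0.00498).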

How the results depend on the processing

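With all arrays, 3428 probe sets rose and 2370 fell. Leaving out 1 array at a time gave 2841 to 3290 rises and 1889 to 2264 falls, and the methods' t-test gave 2132 and 1283 after Benjamini-Hochberg adjustment and, added after the data were seen, 3929 and 2847 without it. With array medians centred the counts were 2656 and 2899, with quantile normalization 2983 and 2792, and with only the 6 arrays 2649 and 1751. A floor of 0.05, no filter and no trend left both counts within 1.5 times. With the mouse as a replicate block the counts were 3475 and 2405, 6 named genes lost their call and the difference between RSG and vehicle had 0 calls, Gp5 having an adjusted p of 0.066. Leaving out 1 array gave 0 to 1 calls for the difference between genotypes, the 1 call being Pdgfra without the control of mouse 1 (adjusted p = 0.0478), and 1 to 2 for that between RSG and vehicle, Fcnb joining Gp5 without the IL-4 array of mouse 3 (adjusted p = 0.0153). Of the named genes 73 lost their call with only the 6 arrays, 113 with the methods' t-test, 21 to 50 when 1 array was left out, 21 with medians centred, 13 with quantile normalization, 7 without the trend and 2 without the filter. The changes that turned sign were not called with all arrays. That of Gbp2, 0.20 with all arrays, ranged from -0.83 (without the control of mouse 2) to 1.71 (without that of mouse 1) when 1 array was left out. That of Gp5, 0.09 with all arrays, was -0.0057 with medians centred and ranged from -0.093 (without the control of mouse 1) to 0.28 (without that of mouse 2) when 1 array was left out. The causes were not tested. The deposited ratios do not give signal over background, so probe sets near background were not told apart from others.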
